A study of Mus musculus with 22 samples.

Results

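Enteroendocrine cells are the hormone-secreting cells of the gut epithelium, and 10 genes that mark them were followed here in the ileum of mice. They were matched by Ensembl identifier among the 54838 genes of the count table, and all 10 passed the filter on low counts. Chga encodes the granule protein chromogranin A. Gcg, Pyy, Cck, Sct, Nts and Sst encode the precursors of the glucagon-like peptides, peptide YY, cholecystokinin, secretin, neurotensin and somatostatin. Tph1 encodes the enzyme that limits serotonin synthesis in the gut. Neurod1 and Neurog3 encode transcription factors of the lineage. On mm10 with GENCODE vM21, Chga spans chr12:102554969-102565028 and Neurog3 chr10:62133090-62134763, both on the plus strand. On the minus strand, Gcg spans chr2:62474530-62483650 and Neurod1 chr2:79452521-79456751. Sct and Tph1, also on the minus strand, span chr7:141278330-141279133 and chr7:46644641-46672537. The remaining minus-strand genes are Pyy at chr11:102106676-102107832, Cck at chr9:121489824-121495694, Nts at chr10:102481756-102490486 and Sst at chr16:23889573-23890958.

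All mice were FVB/N females of 8 to 14 weeks from a conventional animal house. The GRWT mice had a normal glucocorticoid receptor. The GRDim mice were homozygous for a receptor mutation that impairs dimerisation, carried in the germ line and so by every cell type, and both genotypes came from crosses of heterozygous parents. Each genotype drank normal water or water containing 25 mM ZnSO4 for 7 days. This gave 5 GRWT water, 5 GRWT zinc, 6 GRDim water and 6 GRDim zinc libraries, 22 in all. The series description also names dexamethasone, which no sample label carries, and 2 sequencing sets. The sample titles carry a digit that may mark the set. It is 1 in every library labelled ileum and 2 in every library labelled IEC, so set and tissue label cannot be told apart. Nothing in the labels says whether replicates of a group are separate animals, so the p-values measure only the spread between these libraries.

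Libraries were labelled ileum (an intact piece) or IEC (the inner part of the distal ileum, scraped after lysis). The labels did not follow the muscle content. Myh11, the smooth muscle myosin gene, stood at 298 to 463 CPM (counts scaled to the library total) in 12 muscle-rich libraries and at 3.22 to 20.5 CPM in 10 muscle-poor libraries. The muscle-rich side held 7 libraries labelled IEC and 5 labelled ileum, and the muscle-poor side held 3 labelled IEC and 7 labelled ileum. The sides were therefore analysed apart. In the muscle-rich set, all 3 GRDim water libraries are labelled IEC and all 3 GRDim zinc libraries ileum, while GRWT water and GRWT zinc each hold 2 IEC and 1 ileum. In the muscle-poor set, the GRDim zinc libraries are the 3 IEC ones and all others are labelled ileum, so zinc and tissue label cannot be told apart within GRDim mice on either side.

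One muscle-poor library, GRWT zinc ileum replicate 3, stood apart. Fabp6, the ileal bile acid binding protein, was 11.7 CPM there against 4387 to 10866 CPM in the other 21 libraries, whereas Lct, the lactase of the proximal small intestine, was 4274 CPM. Muscle-poor results are given with and without it. Library totals ran from 13149951 to 15620744 counts, so a count of 3, used as the floor, equals 0.192 to 0.228 CPM. Pancreas markers summed to between 0.140 and 0.640 CPM in the other 21 libraries and 4.38 CPM in that library.

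Enteroendocrine cells are scattered singly along the crypts and villi and arise from stem cells through Neurog3, which is expressed briefly, followed by Neurod1. They sense nutrients and bile acids in the lumen and release peptides or serotonin. Their hormones are zoned along the gut: cholecystokinin and gastric inhibitory polypeptide cells are most frequent in the proximal small intestine, whereas glucagon-like peptide 1, peptide YY and neurotensin cells prevail in the ileum. In whole-tissue RNA, fewer cells of a type and less RNA per cell cannot be told apart.

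The 250 bases before the annotated start of 4 hormone genes are printed because these genes differ in the results below, from the most changed (Nts) to one that did not pass the test (Gcg). They come from RefSeq on GRCm38.p6 (mm10) and run 5′ to 3′ on the gene's strand. Capitals mark 2 kinds of motif, searched on both strands over 250 bases before to 50 after the start: CAGATG or CATCTG, a NeuroD-type E-box, and TGACGTCA, the cyclic AMP response element.
Nts (chr10:102490419-102490668, minus strand): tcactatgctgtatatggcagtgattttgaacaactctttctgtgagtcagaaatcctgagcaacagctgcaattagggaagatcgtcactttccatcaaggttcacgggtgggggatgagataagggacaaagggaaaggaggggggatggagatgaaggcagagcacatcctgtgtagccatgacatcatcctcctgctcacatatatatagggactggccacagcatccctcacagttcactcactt
Sst (chr16:23890845-23891094, minus strand): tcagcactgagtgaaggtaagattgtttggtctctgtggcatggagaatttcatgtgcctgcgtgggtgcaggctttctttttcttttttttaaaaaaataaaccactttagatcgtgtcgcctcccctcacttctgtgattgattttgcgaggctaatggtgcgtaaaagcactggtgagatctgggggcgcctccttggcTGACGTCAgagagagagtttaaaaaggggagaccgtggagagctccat
Sct (chr7:141279134-141279383, minus strand): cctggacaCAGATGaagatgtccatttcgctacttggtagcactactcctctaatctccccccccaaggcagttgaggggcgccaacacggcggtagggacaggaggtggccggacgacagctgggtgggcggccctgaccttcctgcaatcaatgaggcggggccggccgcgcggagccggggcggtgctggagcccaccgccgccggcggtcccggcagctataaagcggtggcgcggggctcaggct
Gcg (chr2:62483654-62483903, minus strand): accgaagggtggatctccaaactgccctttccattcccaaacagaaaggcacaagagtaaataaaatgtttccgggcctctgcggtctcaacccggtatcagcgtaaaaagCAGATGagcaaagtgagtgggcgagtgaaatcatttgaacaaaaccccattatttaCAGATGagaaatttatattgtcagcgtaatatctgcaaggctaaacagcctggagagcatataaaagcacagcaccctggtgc
The Sst promoter carries TGACGTCA, whose first base lies 48 bases before the start, and it was the only one of the 10 members with it. Of all 32851 promoters of that length, 1.79% hold it. The E-box is present in Gcg at 139 and 83 bases, in Sct at 242 bases and in Cck at 30 bases before the start, and 17.2% of all promoters hold it. The glucocorticoid receptor half-site AGAACA or TGTTCT occurs in none of the members' windows and in 19.0% of all promoters. These matches describe the letters only.

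Per kilobase of exon, the hormone genes ranked above the enzyme and the transcription factors in the muscle-rich libraries. Nts led with 97.3 ± 33.3 CPM per kb (SD, n = 12 libraries over all 4 conditions), followed by Gcg with 67.3 ± 9.63, Sct with 61.4 ± 13.2, Pyy with 43.5 ± 4.20, Sst with 32.9 ± 9.52 and Chga with 16.1 ± 3.24. Far below came Cck with 2.42 ± 0.307, Tph1 with 1.91 ± 0.367, Neurod1 with 1.19 ± 0.333 and Neurog3 with 0.592 ± 0.217 CPM per kb. The ranges of neighbours in this order overlapped, except between Chga and Cck. The order in the 9 muscle-poor libraries other than the one that stood apart was Nts, Sct, Pyy, Gcg, Sst, Chga, Cck, Tph1, Neurod1, Neurog3, with Nts at 86.5 ± 16.9 CPM per kb. Both orders put Cck, Tph1, Neurod1 and Neurog3 last. Nts was not first in every condition, since Gcg was at 58.8 and Nts at 53.4 CPM per kb in muscle-rich GRDim water.

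The levels of the members differed far less between the sides than those of muscle or neuron genes. The log2 ratio of mean CPM, muscle-rich over muscle-poor and without the library that stood apart, ran from -0.44 for Cck to 0.53 for Neurod1, with a median of 0.09 over the 9 members above 1 CPM. Over the 10 smooth muscle markers the median ratio was 5.56, over 9 enteric neuron markers 5.08 and over 10 epithelial markers -0.32. The libraries were split on Myh11, itself a smooth muscle marker, so the high muscle ratio follows from the split. Genes of secretory granules and prohormone processing, which neurons use too, had a median of 1.38. No test was made of these ratios.

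**Figure D1:**
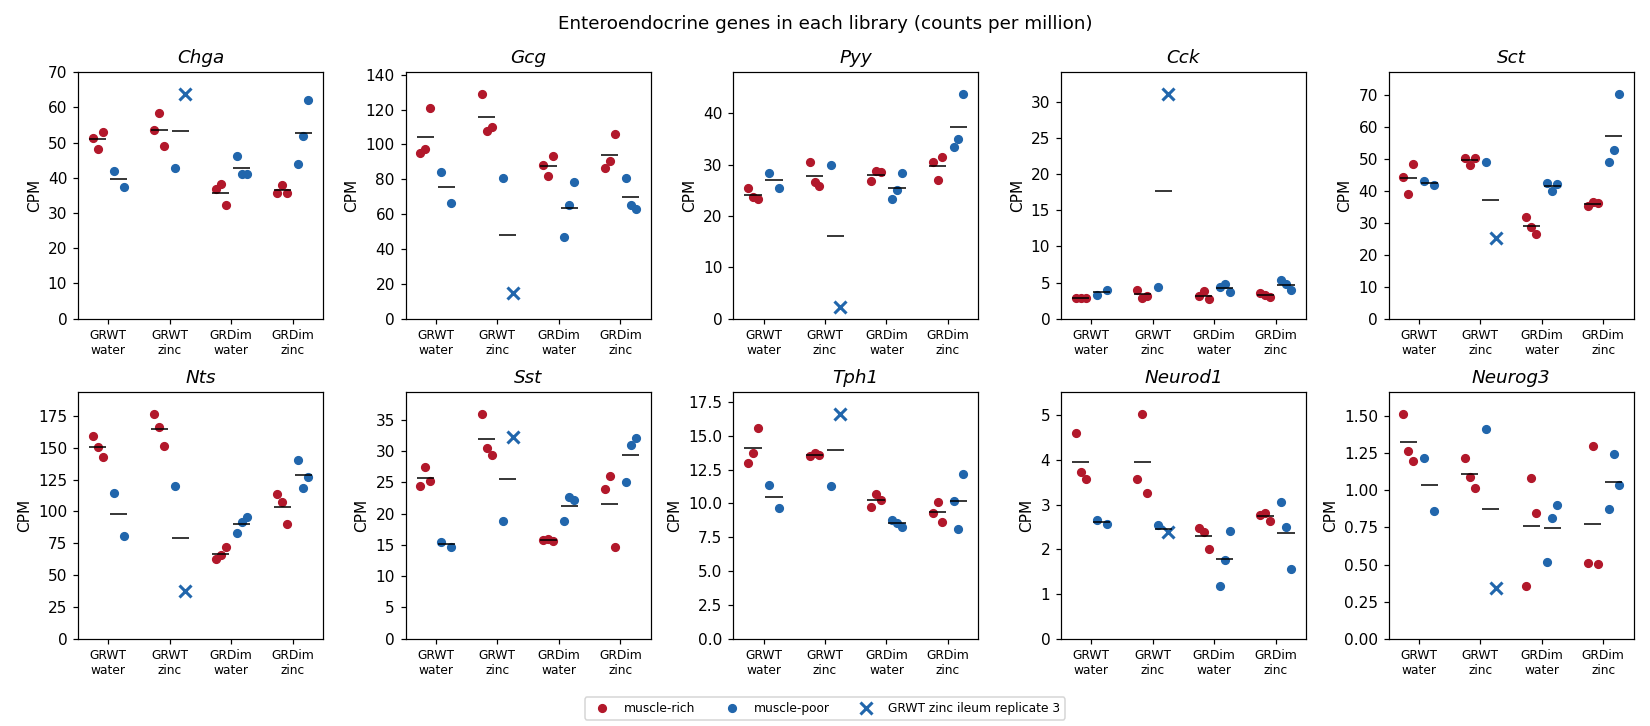
CPM (linear axis from 0) of each member in each of the 22 libraries, by condition, with muscle-rich libraries in red, muscle-poor in blue, black lines at group means and a cross for GRWT zinc ileum replicate 3. Among red points, GRDim water lies below GRWT water without overlap for every member except Pyy, which lies above, and Cck, which overlaps, as it does for 26.2% of all genes. The cross lies far from the other blue points for Pyy and Cck.

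The first question was whether the receptor mutation changes the enteroendocrine genes in mice on normal water. In the muscle-rich libraries, 6 of the 10 members were lower in GRDim than in GRWT mice at an adjusted p under 0.05 and none was higher. Nts fell most, to 0.441 of its GRWT level. Sst, Neurod1, Sct, Chga and Tph1 fell to between 0.578 and 0.723. Gcg, Pyy, Cck and Neurog3 did not pass. The comparison touched many genes: 18.9% of the 15947 genes tested were lower at that adjusted p, and 10.5% were called, meaning an adjusted p under 0.05 with a log2 fold change beyond 0.8 in either direction. Only Nts among the members was called. The median log2 fold change was -0.56 over the members and -0.00 over all genes.

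Nts, neurotensin of the ileal N cells, stood at 62.5, 65.4 and 71.9 CPM in the GRDim water libraries and at 159, 151 and 143 CPM in the GRWT water libraries. The groups did not come near each other. The log2 fold change was -1.18 ± 0.10 (SE, edgeR quasi-likelihood, adjusted p = 1.23e-06).

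Sst, somatostatin of the D cells, which restrains the release of other gut hormones, stood at 15.7, 16 and 15.6 CPM in GRDim water and at 24.4, 27.5 and 25.1 CPM in GRWT water. Again all GRDim libraries were below all GRWT ones. The log2 fold change was -0.71 ± 0.19 (SE, adjusted p = 0.0116).

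Sct, secretin, which drives bicarbonate secretion, was 31.7, 28.7 and 26.5 CPM in GRDim water against 44.3, 39.1 and 48.4 CPM in GRWT water, a log2 fold change of -0.60 ± 0.08 (SE, adjusted p = 6.27e-05). Chga was 36.7, 38.2 and 32.3 CPM against 51.4, 48.3 and 53.2 CPM, a log2 fold change of -0.51 ± 0.09 (SE, adjusted p = 0.000366). For both genes the groups did not overlap, and the GRDim libraries were the lower ones.

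Tph1 was 9.71, 10.7 and 10.2 CPM in GRDim water and 13, 13.7 and 15.6 CPM in GRWT water, with a log2 fold change of -0.47 ± 0.11 (SE, adjusted p = 0.00303). Neurod1 was 2.48, 2.39 and 2.02 CPM against 4.60, 3.73 and 3.58 CPM, a log2 fold change of -0.79 ± 0.20 (SE, adjusted p = 0.00651). The groups did not overlap for either gene. Neurod1 shares exon sequence with Cerkl on the same strand (0.266 CPM on average) and with Gm26755 on the other, so its counts are less certain.

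The other members did not pass. Gcg was 81.9 to 93.5 CPM in GRDim water and 95.1 to 121 CPM in GRWT water, with a log2 fold change of -0.25 ± 0.11 (SE, adjusted p = 0.0794). Pyy, which is made by the same ileal L cells as Gcg, was 26.8 to 28.7 CPM against 23.3 to 25.6 CPM, a log2 fold change of 0.21 ± 0.08 (SE, adjusted p = 0.0552). Gcg and Pyy thus had opposite signs, each without overlap between the groups. Without overlap, 8 members were lower and 1 was higher in GRDim mice, where 26.2% of all genes tested were lower and 27.6% higher without overlap. Cck was 2.67 to 3.76 CPM against 2.81 to 2.91 CPM (log2 fold change 0.15 ± 0.19 SE, adjusted p = 0.577). Neurog3 was 0.354 to 1.09 CPM against 1.19 to 1.51 CPM (log2 fold change -0.79 ± 0.40 SE, adjusted p = 0.129), also without overlap between the groups. Neurog3 overlaps exons of Fam241b on the other strand (18.5 CPM on average), so its value is uncertain unless counting used strand.

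Fits that take the tissue label into account are given beside these values. With only libraries labelled IEC (3 GRDim and 2 GRWT water), the same 6 members had an adjusted p under 0.05, with 18.7% of all genes lower at that level. The log2 fold changes were -1.21 ± 0.06 for Nts, -0.86 ± 0.22 for Neurod1, -0.71 ± 0.09 for Sst, -0.52 ± 0.09 for Sct, -0.48 ± 0.08 for Chga and -0.38 ± 0.11 for Tph1 (SE). With the label as a covariate over all 22 libraries, a fit that averages the muscle sides, Nts was at -0.71 ± 0.22 (SE, adjusted p = 0.0766), Chga at -0.25 ± 0.21 (SE, adjusted p = 0.601) and Sst at -0.20 ± 0.24 (SE, adjusted p = 0.733). No member was called in that fit, where 1.43% of all genes were. It added the label and pooled the muscle sides at once, so the 2 changes cannot be told apart. Scaled to the summed epithelial markers instead of to all genes, 7 members were lower, Gcg being the one added, beside 22.6% of all genes. That scaling moved the median log2 fold change over all genes from -0.0028 to -0.079, and Gcg by a like amount, from -0.25 to -0.33 (SE 0.10, adjusted p = 0.0249).

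The make-up of the hormone transcripts was set beside the genotypes as well. Of the summed CPM of the 6 hormone genes, Nts took 27.4 to 30.1% in GRDim water against 39.3 to 45.2% in GRWT water among muscle-rich libraries, Gcg 36.5 to 39.2% against 27.1 to 33.2%, and Pyy 11.8 to 12.8% against 6.42 to 7.28%. Cck took 1.12 to 1.68% against 0.773 to 0.852%, whereas the shares of Sct and Sst overlapped (Sst 6.51 to 7.13% against 6.92 to 8.06%). The sum was 224 to 239 CPM against 341 to 363 CPM. In the muscle-poor libraries Sst did not overlap between the genotypes on water, at 8.21 to 9.06% in GRDim against 5.36 to 6.29% in GRWT mice. The other shares overlapped there: Nts took 35.4 to 37.9% against 34.5 to 39.6%, Gcg 21.5 to 29.0% against 28.6 to 29.1%, and Pyy 10.03 to 10.65% against 9.82 to 10.96%. These shares are given as a description, without a test.

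**Figure D2:**
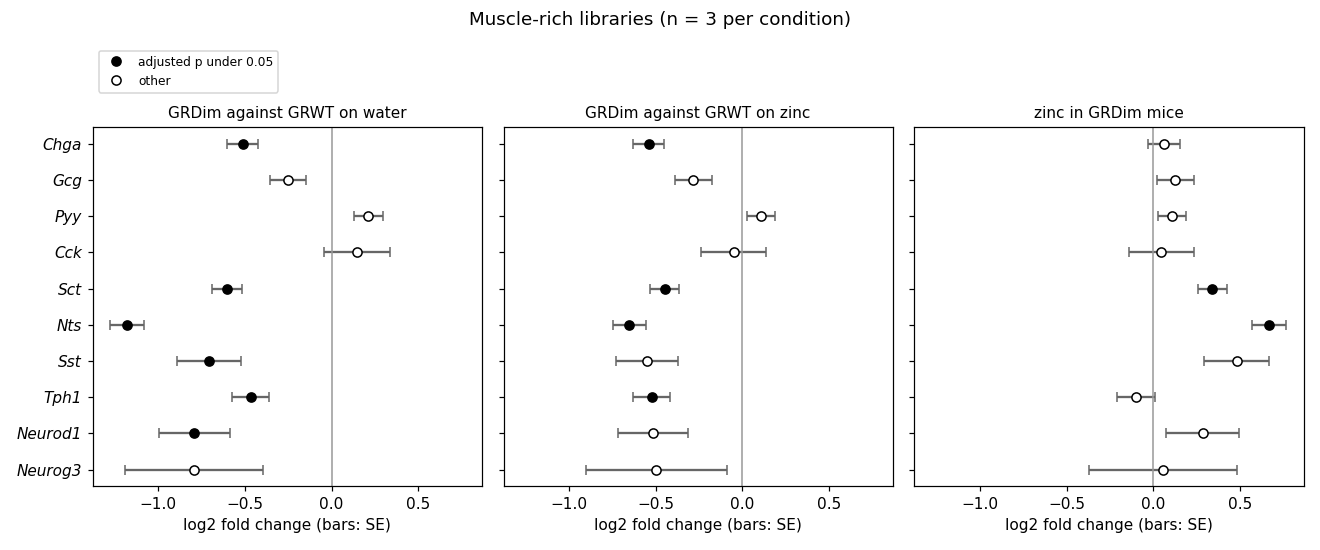
Log2 fold changes (points) with SE (bars) of the 10 members in the muscle-rich libraries, filled where the adjusted p was under 0.05. In GRDim against GRWT mice 6 members are filled and negative on water and 4 on zinc, and zinc in GRDim mice gives 2 filled and positive members, Sct and Nts.

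Related genes were looked at through 6 lists of 72 genes in all, 53 of which were tested in the muscle-rich libraries. On water, 16 of them were called lower and 3 higher in GRDim mice, against 5.47% of all genes called lower and 5.02% called higher. Of the 6 tested genes of other gut hormones, Gip, Insl5 and Vip were called lower and Tac1 higher. Gip, gastric inhibitory polypeptide, was 0.145 to 0.567 CPM in GRDim water, from below the floor to little above it, and 1.90 to 6.96 CPM in GRWT water (log2 fold change -3.98 ± 1.07 SE, adjusted p = 0.0182). Insl5, a peptide of distal L cells, had a log2 fold change of -2.46 ± 0.36 (SE, adjusted p = 8.22e-05). Vip, the vasoactive intestinal peptide of enteric neurons, was at 0 to 0.148 CPM in all muscle-poor libraries.

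Granule and processing genes were lower in 9 of 11 tested at an adjusted p under 0.05, with 4 called and a list median of -0.70, where 18.9% of all genes were lower at that adjusted p. All 5 tested genes of serotonin handling were lower at that adjusted p, none of them called, with a list median of -0.60, beside Tph1 itself. Among the 17 transcription factors tested, 5 were called lower and 1 higher. The one higher was Pax4, which directs endocrine progenitors, with 1.56 to 2.28 CPM in GRDim water against 0.211 to 0.328 CPM in GRWT water, the latter at 3 to 5 counts (log2 fold change 2.70 ± 0.45 SE, adjusted p = 0.000281). Thus Pax4 rose while Neurod1 fell in the same libraries. Of the nutrient receptors, 1 of 6 was called lower. Of 8 receptors and peptidases of gut hormones, 3 were called lower, among them the peptidase gene Mme (-1.74 ± 0.23 SE, adjusted p = 0.000356) and the somatostatin receptor gene Sstr5 (-1.66 ± 0.45 SE, adjusted p = 0.00832), and 1 higher, Glp1r (2.18 ± 0.61 SE, adjusted p = 0.0106), the receptor gene of glucagon-like peptide 1.

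Markers of other cells and of the gut segment moved with this difference. The 6 ileal segment markers summed to 6337 to 7792 CPM in GRDim water and to 10095 to 11745 CPM in GRWT water on the muscle-rich side, and Fabp6 to 4387 to 5771 CPM against 6940 to 9092 CPM. The 10 enteric neuron markers summed to 33.4 to 42.3 CPM against 50.9 to 63.4 CPM, and the 10 smooth muscle markers to 1927 to 2156 CPM against 2492 to 2740 CPM. The 9 mast cell markers summed to 45.4 to 53.4 CPM against 36.5 to 44.0 CPM. Kit made up most of that sum, with a mean of 34.4 CPM over the muscle-rich libraries. The median log2 fold change of the 5 mast cell markers tested was 2.00. Epithelial markers summed to 18138 to 19030 CPM in GRDim water and 17266 to 17661 CPM in GRWT water. The proximal small intestine markers summed to 253 to 329 CPM in GRDim water and 312 to 389 CPM in GRWT water, with overlap. At an adjusted p under 0.05, 3 of 6 tested segment markers, 3 of 8 proximal, 5 of 9 neuron and 6 of 10 muscle markers were lower, beside 18.9% of all genes. At that adjusted p, 1 segment and 1 proximal marker were higher. Of the 5 tested mast cell markers, 4 were called higher, beside 5.02% of all genes. None of 9 pancreas markers passed the count filter. The part of segment, neuron, muscle and mast cell content in the lower hormone transcripts was not tested. On the muscle-poor side the mast cell sum ran the other way, 29.1 to 34.5 CPM in GRDim water and 77.0 to 89.2 CPM in GRWT water, and the segment sum was 11152 to 12199 CPM against 13339 to 13645 CPM.

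**Figure D3:**
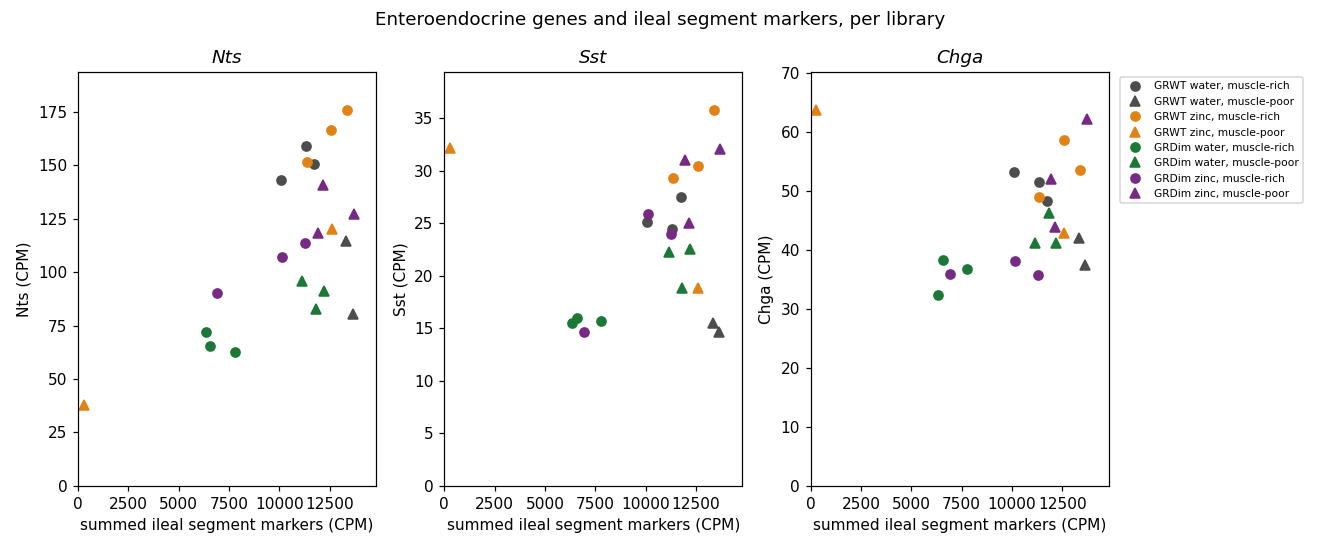
CPM of Nts, Sst and Chga (vertical axes) against the summed CPM of the ileal segment markers (horizontal axis) in the 22 libraries, muscle-rich as circles and muscle-poor as triangles, colours for conditions. The 3 GRDim water circles and GRDim zinc ileum replicate 3 lie at 6337 to 7792 CPM of segment markers, left of all other circles, and the triangle at 286 CPM is GRWT zinc ileum replicate 3.

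In the muscle-poor libraries no member passed the test between the genotypes on water. Of all genes tested there with edgeR, 0.0288% were called. No member had an unadjusted p under 0.05 (5.63% of all genes), and DESeq2 called 0 members (0.290% of the genes it gave an adjusted p). Nts was 82.7, 91.4 and 95.9 CPM in GRDim water and 115 and 80.4 CPM in GRWT water, so the groups overlapped. Sst was 18.8, 22.6 and 22.2 CPM in GRDim water and 15.5 and 14.7 CPM in GRWT water, above rather than below. The smallest adjusted p of the 10 members was 0.956, and their median log2 fold change was -0.20. Leaving out the library that stood apart gave no member under 0.05 either.

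Whether the genotype difference on water itself differed between the sides was tested in 1 fit of 8 groups without the library that stood apart. The difference was lower on the muscle-rich side by 0.99 ± 0.18 on the log2 scale for Nts (SE, adjusted p = 0.00231) and by 1.12 ± 0.25 for Sst (SE, adjusted p = 0.0107), and no other member passed (Chga -0.55 ± 0.17 SE, adjusted p = 0.0561). Of 16868 genes, 3.29% were lower at an adjusted p under 0.05. With all 22 libraries no member passed (adjusted p = 0.144 for Nts and 0.182 for Sst), and 0.519% of all genes were lower.

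On zinc water, 4 members were lower in GRDim than in GRWT mice on the muscle-rich side. Chga, Sct, Nts and Tph1 were lower at an adjusted p under 0.05, and none was higher, while 9.00% of all genes were lower and 4.40% were called in either direction. No member was called. Nts was 114, 107 and 90.2 CPM in GRDim zinc and 176, 167 and 152 CPM in GRWT zinc (log2 fold change -0.65 ± 0.09 SE, adjusted p = 0.000428), and Chga 35.8, 38.1 and 35.8 CPM against 53.6, 58.5 and 48.9 CPM (-0.54 ± 0.09 SE, adjusted p = 0.000765). The groups did not overlap, and 7 members were lower without overlap in this comparison, as were 19.5% of all genes.

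Sct was 35.3 to 36.5 CPM in GRDim zinc and 48.2 to 50.4 CPM in GRWT zinc (-0.45 ± 0.08 SE, adjusted p = 0.00184), and Tph1 8.65 to 10.1 CPM against 13.5 to 13.7 CPM (-0.52 ± 0.11 SE, adjusted p = 0.00376). Sst had a log2 fold change of -0.55 ± 0.18 (SE, adjusted p = 0.0556) and Neurod1 of -0.52 ± 0.20 (SE, adjusted p = 0.0869), both short of the threshold. Without GRDim zinc ileum replicate 3, Sst was at -0.32 ± 0.10 (SE, adjusted p = 0.0454), a smaller difference that passed, in a fit where 5.68% of genes were lower. Scaled to the epithelial markers, 7 members were lower at an adjusted p under 0.05 beside 26.0% of all genes. Under that scaling the median log2 fold change over all genes was -0.18, against -0.02 in the main fit. Of the 53 related genes, those called included Insl5 (-1.69 ± 0.32 SE) and Lmx1a (-0.92 ± 0.24 SE), which were lower, and Glp1r (1.71 ± 0.55 SE), which was higher.

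The tissue labels differ between these groups: all 3 GRDim zinc libraries are labelled ileum and 2 of the 3 GRWT zinc libraries IEC. Within the label ileum (3 against 1) only Sct kept an adjusted p under 0.05, with -0.42 ± 0.10 (SE, adjusted p = 0.0259, where 3.73% of genes were lower), and the lone GRWT library is assumed to vary like the other groups. The log2 fold changes of the other 3 kept their sign within that label, at -0.48 ± 0.15 for Nts (SE, adjusted p = 0.125), -0.47 ± 0.17 for Tph1 (SE, adjusted p = 0.118) and -0.36 ± 0.10 for Chga (SE, adjusted p = 0.0611). With the label as a covariate over all 22 libraries, both muscle sides averaged, Sct turned to 0.03 ± 0.21 (SE, adjusted p = 0.983) and Nts was at -0.17 ± 0.22 (SE, adjusted p = 0.806). The segment markers summed to 6921 to 11286 CPM in GRDim zinc and 11360 to 13386 CPM in GRWT zinc, and the neuron markers to 40.1 to 45.4 CPM against 48.9 to 63.9 CPM. In the muscle-poor set 0.0575% of genes were called and no member was among them, 2 members having an unadjusted p under 0.05 with edgeR (22.9% of all genes) and 1 being called by DESeq2 (5.66% of the genes it gave an adjusted p).

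The difference between the sides depended on the library that stood apart. Without it, the genotype difference on zinc was lower on the muscle-rich side for Chga by 0.82 ± 0.20 on the log2 scale (SE, adjusted p = 0.0467), beside 0.427% of genes lower. With it, Chga was at -0.13 ± 0.28 (SE, adjusted p = 0.822), and Nts (-1.15 ± 0.30 SE, adjusted p = 0.0489) and Sct (-0.81 ± 0.19 SE, adjusted p = 0.0306) passed instead, beside 0.641% of genes.

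The second question was whether zinc changes these genes. In GRDim mice on the muscle-rich side, Nts and Sct were higher on zinc than on water at an adjusted p under 0.05, where 4.46% of all genes were higher and 1.33% were called in either direction. Nts was 114, 107 and 90.2 CPM on zinc against 62.5, 65.4 and 71.9 CPM on water, an increase without overlap of 0.67 ± 0.10 on the log2 scale (SE, adjusted p = 0.00169). In the 3 fits of all 22 libraries (by condition and side, or with the side or the label as covariate) Nts was at 0.57 to 0.69 and did not pass (adjusted p from 0.15 to 0.439). Sct was 35.3, 36.5 and 36.1 CPM against 31.7, 28.7 and 26.5 CPM, an increase of 0.34 ± 0.09 (SE, adjusted p = 0.0257). Without overlap, 3 members were higher on zinc (Neurod1 being the other one), as were 12.4% of all genes. Sct did not pass without GRDim water IEC replicate 5 or 6 or GRDim zinc ileum replicate 1 or 2 (adjusted p from 0.0797 to 0.122).

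Sst was 24.0, 25.9 and 14.7 CPM on zinc and 15.6 to 16 CPM on water, so a single zinc library, GRDim zinc ileum replicate 3, lay below the water libraries. With it, the log2 fold change was 0.48 ± 0.19 (SE, adjusted p = 0.151). Without it, the value was 0.71 ± 0.10 (SE, adjusted p = 0.000477), in a fit where 6.13% of genes were higher at an adjusted p under 0.05. That library also had the lowest ileal segment markers of its group, 6921 CPM against 10138 and 11286 CPM. Chga, Gcg, Pyy, Cck, Tph1, Neurod1 and Neurog3 had log2 fold changes from -0.10 to 0.29 and adjusted p of 0.466 or more.

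Among the related genes, Pax4 was lower in the GRDim zinc than in the GRDim water libraries, at 0.137 to 0.429 CPM (log2 fold change -2.65 ± 0.45 SE, adjusted p = 0.00326) as was Tac1, the precursor of substance P, at 12.7 to 14.7 CPM against 25.2 to 29.5 CPM on water (-1.0 ± 0.11 SE, adjusted p = 0.000184), and Mme was higher (1.56 ± 0.22 SE, adjusted p = 0.00548). These genes moved the opposite way in GRDim against GRWT mice on water. The 2 comparisons share the GRDim water libraries. The GRDim water libraries are the ones labelled IEC, and their segment markers summed to 6337 to 7792 CPM against 6921 to 11286 CPM on zinc, with 2 of 6 tested markers higher on zinc. Mast cell markers, mostly Kit, summed to 45.4 to 53.4 CPM on water and 38.8 to 43.9 CPM on zinc. The median log2 fold change of the 5 tested was -0.80, and 0 of them passed. The part of the segment and of mast cells was not tested.

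On the muscle-poor side, where the labels run the other way (GRDim zinc is IEC), 0.0575% of genes were called for zinc in GRDim mice and no member was, with 1 member at an unadjusted p under 0.05 in edgeR (7.89% of all genes) and 0 called by DESeq2 (0.481% of the genes it gave an adjusted p). All 10 members had positive log2 fold changes. Without the library that stood apart, which belongs to neither group but enters the estimate of the spread, Pyy, Sct, Nts and Sst were higher at an adjusted p under 0.05, beside 3.03% of all genes. Pyy was 33.5, 35.1 and 43.7 CPM on zinc and 23.3, 25.0 and 28.4 CPM on water (0.57 ± 0.11 SE, adjusted p = 0.0134).

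In the same libraries Nts was 141, 118 and 127 CPM on zinc and 82.7, 91.4 and 95.9 CPM on water (0.54 ± 0.13 SE, adjusted p = 0.0349), Sct 49.0 to 70.2 CPM against 40.0 to 42.4 CPM (0.49 ± 0.12 SE, adjusted p = 0.0348), and Sst 25.1 to 32.0 CPM against 18.8 to 22.6 CPM (0.49 ± 0.11 SE, adjusted p = 0.0216). For each of the 4 genes, and no other member, all zinc libraries were above all water libraries, as for 11.3% of all genes. Ileal segment markers summed to 11940 to 13714 CPM on zinc and 11152 to 12199 CPM on water there, and enteric neuron markers to 7.40 to 12.5 CPM against 3.52 to 4.06 CPM, whose part was not tested. No member passed a test of whether the zinc effect in GRDim mice differs between the sides (21 libraries, the lowest adjusted p being 0.486, for Pyy, at -0.44 ± 0.14 SE). In that edgeR fit 0 of 16868 genes passed (0%), and 7.54% had an unadjusted p under 0.05, Pyy being the sole member among them, so the result is not particular to the members.

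In GRWT mice no member passed the test for zinc on the muscle-rich side, where 0.163% of genes were called. Nts was 176, 167 and 152 CPM on zinc and 159, 151 and 143 CPM on water, with overlap, and a log2 fold change of 0.14 ± 0.09 (SE, adjusted p = 0.582). The log2 fold changes ran from -0.24 for Neurog3 to 0.33 for Sst, and the lowest adjusted p was 0.341, for Pyy. At an unadjusted p under 0.05, 2 members passed in edgeR (11.5% of all genes), and DESeq2 called 0 (0.282% of the genes it gave an adjusted p). Within the label IEC (2 against 2), Gcg (0.34 ± 0.08 SE, adjusted p = 0.0370) and Sst (0.40 ± 0.10 SE, adjusted p = 0.0429) were higher on zinc, beside 2.21% of all genes.

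The interaction, which asks whether zinc acts differently in the 2 genotypes, had 0.263% of genes called on the muscle-rich side and no member among them. Among the members it was largest for Nts, 0.53 ± 0.13 on the log2 scale (SE, adjusted p = 0.101), the sole member at an unadjusted p under 0.05 (15.5% of all genes) and called by DESeq2 (2.20% of the genes it gave an adjusted p). Nts was called with GRDim zinc ileum replicate 3 left out (0.63 ± 0.11 SE, adjusted p = 0.00613), in a fit that called 2.14% of genes. Of the related genes, Tac1 was called (-0.79 ± 0.15 SE, adjusted p = 0.0455). On the muscle-poor side 0% of genes were called for the interaction and 0.0431% for zinc in GRWT mice, with no member in either. At an unadjusted p under 0.05, 1 member passed for the interaction there (4.66% of all genes) and 3 for zinc in GRWT mice (17.1% of all genes). DESeq2 called 0 members for the interaction (0.0153% of the genes it gave an adjusted p) and 1 for zinc in GRWT mice (3.40% of those genes).

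The muscle-poor GRWT zinc group rests on 2 libraries that differ in their hormones. In GRWT zinc ileum replicate 3, Cck was 31.1 CPM, 7.11 times the median of the other 9 muscle-poor libraries, and Gip was 104 CPM, 12.9 times that median. Pyy was 2.33 CPM, 0.0819 times the median, Gcg 15 CPM, Nts 37.9 CPM and Sct 25.3 CPM, all below the range of the other 9. Chga at 63.7 CPM, Sst at 32.2 CPM and Tph1 at 16.6 CPM lay above that range. Cck and Gip were thus high and Pyy, Gcg, Nts and Sct low in this library, alongside high proximal marker genes (20213 CPM summed, against 385 to 537 CPM in the other muscle-poor libraries).

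With this library as the sole GRWT zinc library, 7 members were called for zinc in GRWT mice, 6 for GRDim against GRWT on zinc and 8 for the interaction, beside 30.1%, 31.4% and 39.3% of all genes. With GRWT zinc ileum replicate 2 as the sole one, none of the members was called in these comparisons. Each such comparison assumes that the lone library varies like the other groups.

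**Figure D4:**
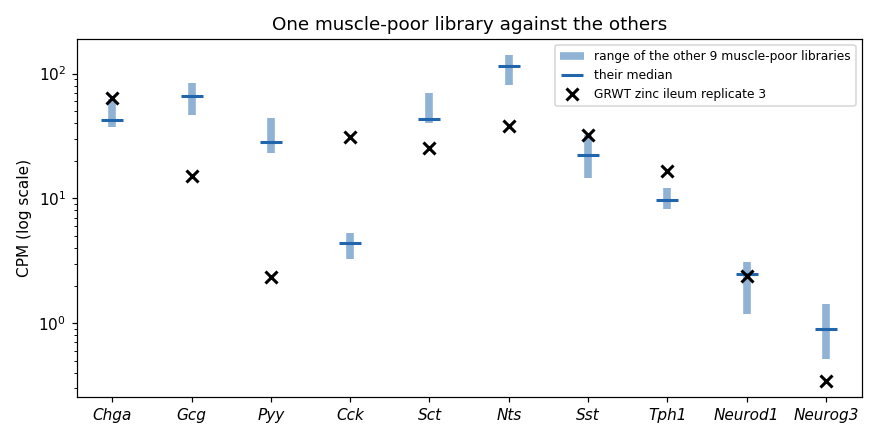
CPM on a log axis of the 10 members in GRWT zinc ileum replicate 3 (crosses) beside the range (bars) and median (dashes) of the other 9 muscle-poor libraries. Chga, Cck, Sst and Tph1 lie above their bars and Gcg, Pyy, Sct, Nts and Neurog3 below theirs.

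The genes whose pattern was most like that of Chga, after subtracting the mean of each condition on each muscle side, were Eps8l2 (Pearson r = 0.94), Mafk (0.91), Fibp (0.89), Chmp3 (0.88) and Dpp3 (0.88), over 21 libraries and 14132 genes. Among the members, Sct was closest with r = 0.77, followed by Tph1 with 0.54 and Pyy with 0.40, whereas Gcg had -0.30. The points share libraries and depth, so these are descriptions. With GRWT zinc ileum replicate 3 included, r fell to 0.66 for Chmp3 and to 0.30 for Dpp3. That library also overturned the order among the members: with it, r was -0.06 for Sct, 0.84 for Tph1, -0.76 for Pyy, 0.77 for Cck and -0.80 for Gcg.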

How the data were processed

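The authors made stranded single-end TruSeq libraries, mapped them with HISAT2 2.0.4 to mm10 and counted reads per gene with featureCounts without multimapping reads. The deposited file holds raw counts for 54838 genes. The annotation release and strand setting are not given in the sources used here. Genes were named from GENCODE vM21 (54809 matched). Of the GRDim water ileum columns, 2 share 1 name and carry no replicate number.

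Libraries were split at 100 CPM of Myh11, and the split by summed smooth muscle markers was the same for all 22. On each side, edgeR 4.0.16 (TMM, filterByExpr, robust quasi-likelihood test, Benjamini-Hochberg adjustment over all genes) was fitted to the 4 conditions. Called means an adjusted p under 0.05 and an absolute log2 fold change over 0.8, and for the interaction the adjusted p alone. SE is the log2 fold change divided by the square root of F. DESeq2 1.42.0, other scalings and filters, pooled fits and omitted libraries were alternatives. The script was tested on simulated data. Total counts per library limit the precision, and floors cover counting error only.

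Members and gene lists were chosen with earlier results of these data known. All members were named, with at most 6 called genes of the lists per comparison. The other list genes named and the alternatives within 1 label, scaled to epithelial markers, between sides, or without 1 library beside a muscle covariate were chosen after values were seen.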

Additional observations from a re-analysis of the deposited data

Results flagged for a closer look

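Among 40 sets of a member in a condition, 3 held a library far from the others. The sets share libraries and pool both muscle sides, so no rate expected by chance is set beside this count. All 3 were GRWT zinc ileum replicate 3 among the 5 GRWT zinc libraries: Pyy at 2.33 CPM, Cck at 31.1 CPM and Sct at 25.3 CPM. The gap to the nearest library was 0.836, 0.948 and 0.913 of the whole range.

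The genotype difference itself differed between muscle-rich and muscle-poor libraries for a few members, by edgeR's test of the difference. Without GRWT zinc ileum replicate 3 the muscle-rich minus muscle-poor value was -0.99 on the log2 scale for Nts and -1.12 for Sst on water, and -0.82 for Chga on zinc. With all 22 libraries these did not pass, and on zinc the difference was -1.15 for Nts and -0.81 for Sct.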

How the results depend on the processing

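The counts of members that passed depended on the fit. They stand without the share of all genes in each fit, here and in the paragraphs below. They therefore only compare the fits and give no result about the members. Under 1 comparison at a time, values are members called and, where named, members with an adjusted p under 0.05. For GRDim against GRWT on water in muscle-rich libraries (1 called, 6 with an adjusted p under 0.05), 2 were called with epithelial scaling, within the IEC label and in 1 fit of all 22 libraries by condition and side, and 0 with the muscle side or the tissue label as a covariate over 22 libraries, or with the side covariate without GRWT zinc ileum replicate 3. Those covariate fits, which average the sides, left 3 and 1 with an adjusted p under 0.05 with the side and the label. For the genotypes on zinc (0 and 4), epithelial scaling gave 1 called and 7 passing, the ileum label 1 passing, the side covariate 1 with or without that library, and the fit of condition by side and the label covariate 0. For zinc in GRDim mice (2 passing), epithelial scaling left 1 and the 3 fits of all 22 libraries (condition by side, side covariate, label covariate) 0, whereas the side covariate without that library gave 3. For zinc in GRWT mice the IEC label gave 2. DESeq2 and no filter on low counts each gave 1 for the muscle-rich interaction. In muscle-poor libraries (0 throughout), DESeq2 gave 1 and the fit of condition by side 2 for zinc in GRWT mice and for the genotypes on zinc. For the latter the side covariate gave 1 with or without that library. On water it gave 3, and 6 without that library, and the label covariate gave 1. For zinc in GRDim mice it gave 3 without that library, as did the fit of the compared conditions only.

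Leaving out 1 library gave, in muscle-rich libraries, 1 to 3 passing for zinc in GRDim mice, 1 to 2 called on water (2 without GRDim water IEC replicate 4 or 5, GRWT water IEC replicate 5 or GRWT water ileum replicate 1) and 0 to 1 for the interaction (1 without GRDim zinc ileum replicate 3). In muscle-poor libraries it gave 0 to 7 for zinc in GRWT mice, 0 to 4 passing for zinc in GRDim mice, 0 to 6 called and 0 to 8 passing for the genotypes on zinc and 0 to 8 for the interaction, the upper values without GRWT zinc ileum replicate 2 (for the 4, also without replicate 3). Of 12 single-gene results, only Sct on zinc reversed, to 0.0268 (adjusted p = 0.983) with the label as covariate. The causes were not tested.

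Same-numbered libraries of different conditions showed no shared deviation over all genes (25 pairs, r from -0.10 to 0.14, 1 of them over 0.1). With so few libraries per group, this cannot settle whether the numbers pair the samples. With the replicate block and the side covariate, 1 member was called for zinc in GRDim mice (2 passing) and 3 on water (4 passing), in fits shared by both sides, and 0 passed between the genotypes on zinc. The share of all genes in those fits is not given, so whether these counts exceed it is not known.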
